A study of Homo sapiens with 30 samples.

Results

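The 10 genes described here encode proteins of the inner nuclear membrane and of the LINC complex, the bridge between the nucleoskeleton and the cytoskeleton. They were chosen by gene symbol, with earlier results of these data known: LBR, EMD, TMPO, LEMD2, LEMD3, BANF1, SUN1, SUN2, SYNE1 and SYNE2. All 10 were among the 27630 genes of the RNA count tables, and all 10 were among the 16504 genes left by the filter on low counts. The RNA came from HEK293FT, an established line derived from human embryonic kidney, in 8 libraries. Of these, 2 held the nuclear fraction and 2 the cytosolic fraction. The other 4 held RNA recovered near the nuclear lamina with the peroxidase APEX2, 2 of them native and 2 after fixation with paraformaldehyde (PFA). Every group, both fractions included, came from asynchronous cells that carried a transfected construct of APEX2 and lamin B1. No group without the construct was used here, and the promoter that drives it is not given in the sources used here. The labels number the libraries of a group 1 and 2 without naming separate cultures, so the p-values below measure the spread between these libraries, which may be technical.

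The inner nuclear membrane faces the lamina, a meshwork of lamin filaments that holds heterochromatin at the nuclear edge. Its proteins are made at the endoplasmic reticulum or in the cytosol and reach the inner membrane through the nuclear pores. Emerin, LAP2 (the product of TMPO), LEMD2 and LEMD3 share the LEM domain, which binds the small chromatin protein BAF (the product of BANF1). SUN proteins span the inner membrane, nesprins (SYNE genes) span the outer one, and the pair meet in the space between to form the LINC complex. APEX2 marks molecules within a short radius of the enzyme, so an APEX2 and lamin B1 fusion is a way to ask which RNAs lie near the lamina.

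Total counts per library ran from 2321291, in PFA lamina replicate 2, to 8557777, in native lamina replicate 1. Levels below are CPM, counts scaled to library size, after TMM scaling (normalised CPM), and are shares of a library. A larger amount of a gene's RNA and a smaller amount of other RNA therefore cannot be told apart, nor can fewer cells and less RNA per cell. The fractions separated at known RNAs, since MALAT1, a nuclear long noncoding RNA, was 15.5-fold higher in the nuclear fraction (edgeR quasi-likelihood test, adjusted p = 0.00134). The cytosolic mRNAs GAPDH, ACTB and EEF1A1 were all lower there (log2 -2.81, -2.49 and -1.98). LMNB1, the gene of the construct, read 3231 and 3507 normalised CPM in the nuclear pair and 4197 and 6382 in the cytosolic pair, against 76513 and 26168 in the native lamina and 96237 and 81004 in the PFA lamina. The 2 PFA libraries stood apart from each other at MALAT1, with 595 normalised CPM in replicate 1 and 3079 in replicate 2. The neuronal and renal genes listed for HEK293 all had counts in some library (7 of 7). NEFL had 211 to 1575, while the renal genes PAX2 and LHX1 had only 0 to 38 and 14 to 68. Of the 6 erythroid markers of K562, another line of the study, 4 had no count in any library. The remaining ones, TAL1 and GATA1, had 4 to 45 and 0 to 10. Of the 6 markers listed for the colorectal line HCT116, CDX2 had 60 to 313 counts. The others were lower, with 0 to 74 for VIL1, 7 to 21 for EPCAM, 0 to 9 for LGALS4, 0 to 8 for CDH17 and 0 to 2 for KRT20.

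Between the fractions, 6 of the 10 genes were higher in the nuclear fraction (SUN2, SUN1, SYNE2, LEMD3, LBR and LEMD2) and 3 were higher in the cytosolic fraction (BANF1, EMD and TMPO). SYNE1 did not pass the test. Of all 16504 genes tested, 26.1% were called higher in the nuclear and 21.2% higher in the cytosolic fraction. The median log2 fold change, nuclear minus cytosolic, was 0.87 over the 10 genes and 0.13 over all genes tested. A call is an adjusted p under 0.05 in edgeR's quasi-likelihood test, with Benjamini-Hochberg adjustment over all genes.

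**Figure D1:**
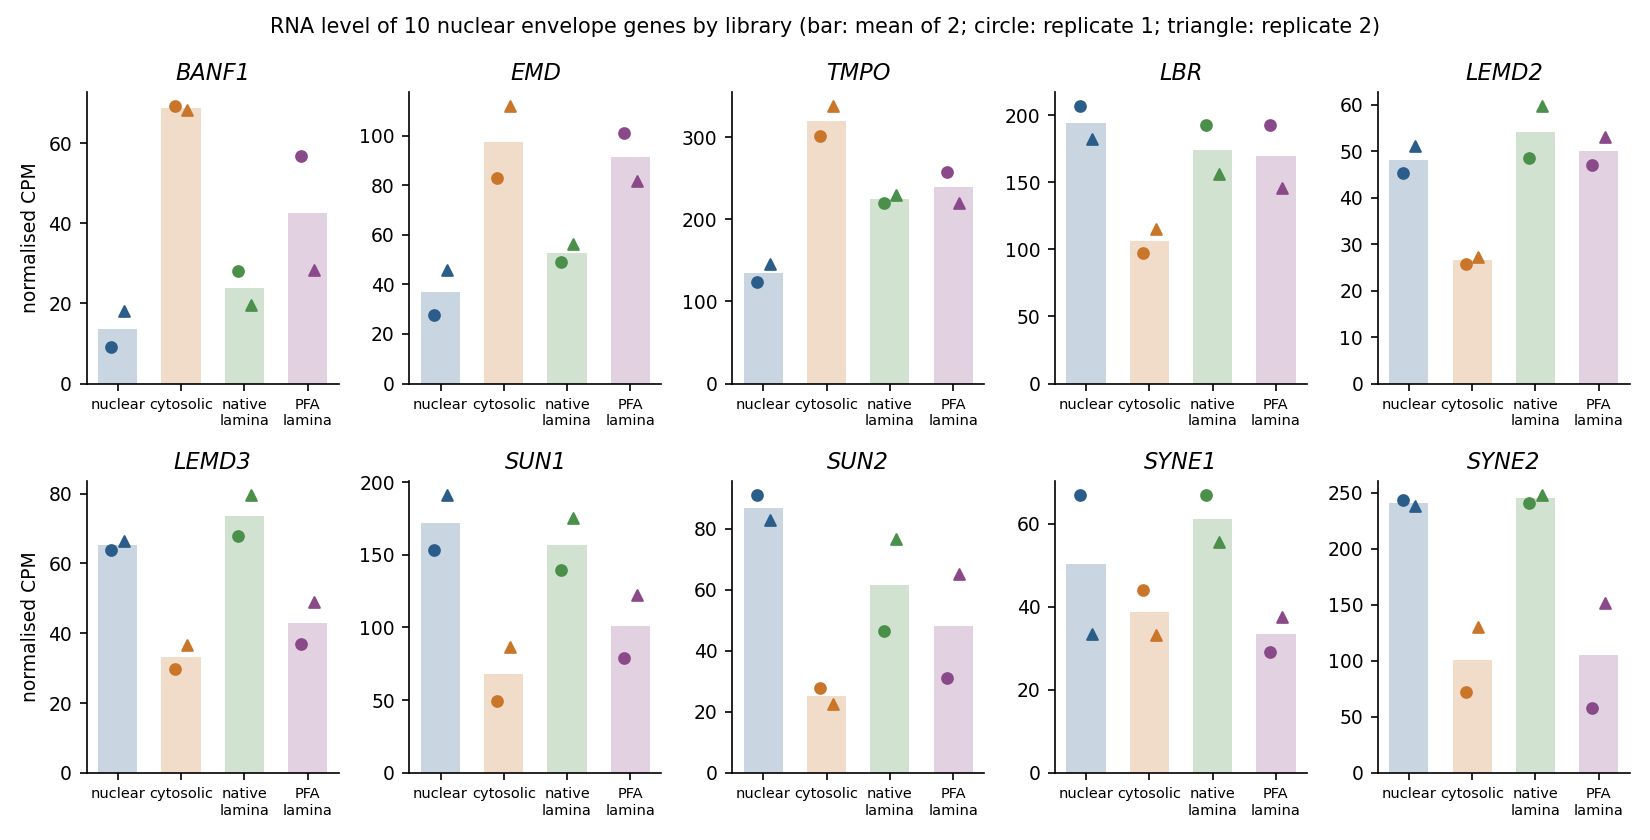
Normalised CPM (linear axis from 0) of the 10 genes in each library, by group; bars are means of 2 libraries, circles replicate 1 and triangles replicate 2. BANF1, EMD and TMPO are highest in the cytosolic libraries by their group means, and the cytosolic bar is the lowest for LBR, LEMD2, LEMD3, SUN1, SUN2 and SYNE2.

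BANF1 encodes BAF, a small DNA-bridging protein that binds LEM domains and helps to gather chromatin when the envelope forms again after mitosis. The gene lies at chr11:65769550-65771617 on the plus strand (hg19) with 1.15 kb of annotated exon. It read 9.18 and 18.2 normalised CPM in the nuclear pair, 69.3 and 68.3 in the cytosolic pair, 28.0 and 19.6 in the native lamina and 56.9 and 28.3 in the PFA lamina. Both cytosolic libraries lay above the other 6, and both nuclear libraries below the other 6. BANF1 was 5.03-fold lower in nuclear than in cytosolic RNA (log2 fold change -2.33, SE 0.40, adjusted p = 0.00111). Only 1.4% of the genes tested had a lower log2 fold change. Its depth was the smallest of the 10 genes, with 59 and 106 nuclear counts. BANF1 shares 88 exonic bases, 7.64% of its own, with EIF1AD on the other strand. Strand was ignored in counting and shared reads were counted for both genes, so reads of EIF1AD (222 and 259 nuclear counts) could be among those of BANF1.

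EMD encodes emerin, a LEM-domain protein of the inner membrane whose loss causes X-linked Emery-Dreifuss muscular dystrophy. The gene lies at chrX:153607597-153609883 on the plus strand with 1.34 kb of exon. Its level was 27.7 and 45.9 normalised CPM in the nuclear pair, 83.0 and 112 in the cytosolic pair, 48.9 and 56.4 in the native lamina and 101 and 81.7 in the PFA lamina. The nuclear pair lay lowest, the native pair next, and the cytosolic and PFA pairs overlapped at the top. EMD was 2.65-fold lower in nuclear than in cytosolic RNA (log2 fold change -1.40, SE 0.31, adjusted p = 0.00348).

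TMPO encodes the LAP2 proteins, of which the membrane-bound forms bind B-type lamins and the alpha form sits in the nucleoplasm with A-type lamins. It lies at chr12:98909351-98944157 on the plus strand with 6.99 kb of exon, and the counts do not separate its isoforms. TMPO read 124 and 146 normalised CPM in the nuclear pair, 301 and 338 in the cytosolic pair, 220.1 and 229.7 in the native lamina and 257 and 220 in the PFA lamina. All 4 lamina libraries lay between the nuclear and the cytosolic pair. The nuclear level was 2.36-fold lower than the cytosolic one (log2 fold change -1.24, SE 0.28, adjusted p = 0.00358). TMPO shares 481 exonic bases, 6.88% of its own, with the antisense gene TMPO-AS1, which had 125 to 593 counts in a library against 598 to 2253 for TMPO. The reads of the pair cannot be told apart there.

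The other LEM-domain genes lay on the opposite side. LEMD2 (chr6:33738990-33756906, minus strand, 3.11 kb of exon) encodes an inner membrane protein that recruits the membrane-sealing ESCRT machinery to the closing envelope. It read 45.3 and 51.2 normalised CPM in the nuclear pair, 25.8 and 27.3 in the cytosolic pair, 48.5 and 59.8 in the native lamina and 47.1 and 53.0 in the PFA lamina. The cytosolic pair lay below the other 6 libraries, which overlapped. LEMD3 (chr12:65563351-65642141, plus strand, 4.80 kb of exon) encodes MAN1, which binds receptor-regulated SMAD proteins and dampens TGF-beta and BMP signalling. LEMD3 had 64.0 and 66.5 normalised CPM in the nuclear pair, 29.7 and 36.6 in the cytosolic pair, 67.9 and 79.6 in the native lamina and 37.0 and 48.9 in the PFA lamina. The native pair was highest and the nuclear pair next, while the PFA pair lay just above the cytosolic one. In the nuclear against the cytosolic fraction, LEMD2 was 1.82-fold higher (log2 0.86, SE 0.27, adjusted p = 0.0196) and LEMD3 1.97-fold higher (log2 0.98, SE 0.28, adjusted p = 0.0118).

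LBR encodes the lamin B receptor, a multi-pass protein that binds B-type lamins and heterochromatin protein HP1 and also acts as a sterol reductase. It lies at chr1:225589204-225616557 on the minus strand with 3.97 kb of exon. LBR read 207 and 182 normalised CPM in the nuclear pair, 97.3 and 115 in the cytosolic pair, 193 and 156 in the native lamina and 193 and 146 in the PFA lamina. The cytosolic pair lay below all other libraries, and the other 3 groups overlapped. Its nuclear level was 1.84-fold above the cytosolic one (log2 0.88, SE 0.28, adjusted p = 0.0226).

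SUN1 and SUN2 encode the inner membrane side of the LINC complex, whose SUN domains grip the tails of nesprins. SUN1 (chr7:855194-914557, plus strand, 4.64 kb of exon) read 153 and 191 normalised CPM in the nuclear pair, 49.2 and 86.5 in the cytosolic pair, 139.7 and 175 in the native lamina and 79.1 and 122 in the PFA lamina. SUN2 (chr22:39130719-39152024, minus strand, 4.32 kb of exon) read 91.0 and 82.8 in the nuclear, 27.8 and 22.6 in the cytosolic, 46.6 and 76.5 in the native lamina and 31.2 and 65.1 in the PFA lamina. For both genes the nuclear and cytosolic libraries did not overlap, and PFA replicate 1 lay nearer the cytosolic pair than PFA replicate 2 did. The nuclear excess was 3.44-fold for SUN2 (log2 1.78, SE 0.37, adjusted p = 0.00242) and 2.54-fold for SUN1 (log2 1.34, SE 0.34, adjusted p = 0.00656). SUN2 had the largest positive difference of the 10 genes, and 81.6% of the genes tested had a lower one.

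SYNE1 and SYNE2 encode nesprin-1 and nesprin-2, whose giant forms reach from the outer nuclear membrane to actin filaments. They are the longest of the 10 genes. SYNE2 (chr14:64319683-64693167, plus strand, 22.27 kb of exon) read 244 and 238 normalised CPM in the nuclear pair, 71.8 and 130.5 in the cytosolic pair, 241 and 248 in the native lamina and 57.8 and 152 in the PFA lamina. Its nuclear and native libraries all lay between 238 and 248, while the cytosolic and PFA libraries were lower and more scattered. SYNE1 (chr6:152442819-152958534, minus strand, 28.17 kb of exon) read 66.9 and 33.5 normalised CPM in the nuclear pair, 44.1 and 33.2 in the cytosolic pair, 66.9 and 55.6 in the native lamina and 29.2 and 37.5 in the PFA lamina. The nuclear replicates of SYNE1 differed 2.0-fold and overlapped the cytosolic pair. SYNE2 was 2.39-fold higher in the nuclear fraction (log2 1.25, SE 0.41, adjusted p = 0.023), while the log2 difference of SYNE1 was 0.37 (SE 0.34, adjusted p = 0.377). SYNE1 shares 303 exonic bases with its antisense gene SYNE1-AS1, which had at most 9 counts in a library.

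The calls of BANF1, TMPO and SUN2 between the fractions held when each of the 8 libraries was left out in turn, and that of EMD was lost without nuclear replicate 1 (adjusted p = 0.0559). SUN1 lost its call without cytosolic replicate 1 (adjusted p = 0.0808). LEMD3 and SYNE2 lost theirs without either nuclear library or cytosolic replicate 1, with adjusted p from 0.0559 to 0.0962 for LEMD3 and from 0.0706 to 0.192 for SYNE2. LBR and LEMD2 lost theirs without any 1 of the 4 fraction libraries, with adjusted p from 0.0574 to 0.136 for LBR and from 0.0618 to 0.105 for LEMD2. Each of these log2 fold changes kept its sign. In the fits without 1 of the 4 fraction libraries, 24.4% to 31.2% of all genes were called either way, against 47.3% with all 8. With upper-quartile factors the same members were called, but 67.6% of all calls between the fractions were nuclear, against 55.2% with TMM.

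Levels of different genes were compared per kilobase of exon. In the nuclear fraction the order ran from LBR, at 48.9 ± 4.55 normalised CPM per kb (mean ± SD of 2 libraries), through SUN1 (37.0 ± 5.74), EMD (27.5 ± 9.60), SUN2 (20.1 ± 1.35) and TMPO (19.3 ± 2.26) to LEMD2 (15.5 ± 1.34). LEMD3 (13.6 ± 0.372), BANF1 (11.9 ± 5.54), SYNE2 (10.8 ± 0.193) and SYNE1 (1.78 ± 0.839) followed. Neighbours from SUN1 to TMPO and from LEMD3 to SYNE2 overlapped in their replicates, so their order there is not settled. In the cytosolic fraction EMD (72.8 ± 15.2), BANF1 (59.7 ± 0.588) and TMPO (45.7 ± 3.75) led, ahead of LBR (26.7 ± 3.07), and no neighbours among the first 7 overlapped. BANF1 thus stood eighth of 10 per kilobase in the nuclear fraction and second in the cytosolic one. SYNE1 was last in all 4 groups, at 1.18 to 2.17 normalised CPM per kb, and overlapped no other gene.

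In the native lamina preparation, the 10 genes were compared with each fraction in turn. Against the nuclear fraction no member was called, where 7.31% of all genes were called either way. The smallest adjusted p was 0.103, for TMPO, whose mean was 1.66-fold higher in the native lamina (log2 0.73, SE 0.28). It was also the only member with an unadjusted p under 0.05, against 28.8% of all genes, and DESeq2's Wald test called no member. The replicates of 5 members did not overlap between these groups, where 63.3% of all genes did not. Against the cytosolic fraction, LEMD3 (log2 1.16, SE 0.28, adjusted p = 0.0185), LEMD2 (1.03, SE 0.27, 0.026), SUN1 (1.22, SE 0.34, 0.0323) and SUN2 (1.28, SE 0.36, 0.0349) were higher in the native lamina. BANF1 was 2.88-fold lower (log2 -1.53, SE 0.38, adjusted p = 0.022). In the same comparison MALAT1 was higher (log2 3.32, adjusted p = 0.0109) and GAPDH (-2.27, 0.0185) and EEF1A1 (-1.57, 0.0123) were lower in the native lamina. NEAT1 and ACTB were not called there. Against the nuclear fraction, ACTB was higher in the native lamina (edgeR's test, log2 1.48, adjusted p = 0.0291), while GAPDH and EEF1A1 were not called. The part of these RNAs in the member differences was not tested. Of all genes, 6.99% were called higher and 6.77% lower in native lamina against cytosol.

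SYNE2 (log2 1.28, SE 0.41, adjusted p = 0.0532) and EMD (-0.89, SE 0.31, 0.0689) came close to the threshold in native lamina against cytosol, and both passed it in DESeq2's Wald test (adjusted p = 0.0161 and 0.0415). All 5 calls were lost when either cytosolic library or native replicate 2 was left out, with adjusted p from 0.0737 to 0.254. In those fits at most 0.576% of all genes were called. The calls of LEMD2, SUN1 and BANF1 were also lost without native replicate 1 (log2 1.17, 1.37 and -1.81). That of SUN2 was lost without either nuclear library (log2 1.28 each time), and that of SUN1 without nuclear replicate 1 (log2 1.22). With total counts in place of TMM factors, 73.9% of all calls were higher in the native lamina against 50.8%, and the median of all genes moved by 0.29.

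The PFA lamina was compared with the same 2 nuclear libraries in which BANF1, EMD and TMPO were low against the cytosol, so the values of these genes are not independent of that result. BANF1 was 3.15-fold higher (log2 1.66, SE 0.40, adjusted p = 0.0183) and EMD 2.49-fold higher (log2 1.31, SE 0.31, adjusted p = 0.0176) in the PFA lamina than in the nuclear fraction. No member was called lower, where 9.63% of all genes were called higher and 7.81% lower. TMPO (0.82, SE 0.28, adjusted p = 0.056) and SYNE2 (-1.21, SE 0.41, 0.0567) lay just outside the threshold, on opposite sides. Both nuclear marker RNAs, MALAT1 and NEAT1, were also lower in the PFA lamina than in the nuclear fraction (log2 -2.90 and -3.03, adjusted p = 0.0166 and 0.0193), and their part in the member differences was not tested.

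The 2 PFA libraries did not weigh equally in this. Without PFA replicate 1, the library with less MALAT1, the differences of BANF1 (1.06, adjusted p = 0.145) and EMD (1.16, adjusted p = 0.0659) were no longer called, in a fit that called 4.19% of all genes. Without nuclear replicate 1, where 0.0727% of all genes were called, they were 1.24 (adjusted p = 0.175) and 0.99 (adjusted p = 0.179), and with only the 4 libraries compared they missed the threshold as well (adjusted p = 0.0662 and 0.0595). Without PFA replicate 2, which had the fewest counts, SYNE2 (-2.06, adjusted p = 0.00145), SUN2 (-1.48, 0.0067), SUN1 (-1.12, 0.0313) and TMPO (0.93, 0.0304) were called in addition. Calls over all genes grew as well in that fit, to 16.1% higher and 19.3% lower. The share of all calls that were higher in the PFA lamina was 55.2%, and it was 78.7% with total counts and 42.3% with upper-quartile factors.

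Against the cytosolic fraction no member was called in the PFA lamina, where 0.673% of all genes were. The smallest adjusted p was 0.0999, for LEMD2, whose mean was 1.88-fold higher (log2 0.91, SE 0.27). Unadjusted p was under 0.05 for 3 members (LBR, LEMD2 and SUN2), against 21.5% of all genes, and DESeq2's Wald test called no member. Without PFA replicate 1, LEMD2 (0.96, adjusted p = 0.0491), SUN2 (1.33, 0.0167) and BANF1 (-1.31, 0.0417) were called, in a fit that called 10.2% of all genes higher and 6.54% lower. The comparisons of both lamina preparations with the fractions share the same 4 fraction libraries, so their values are not independent of one another.

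**Figure D2:**
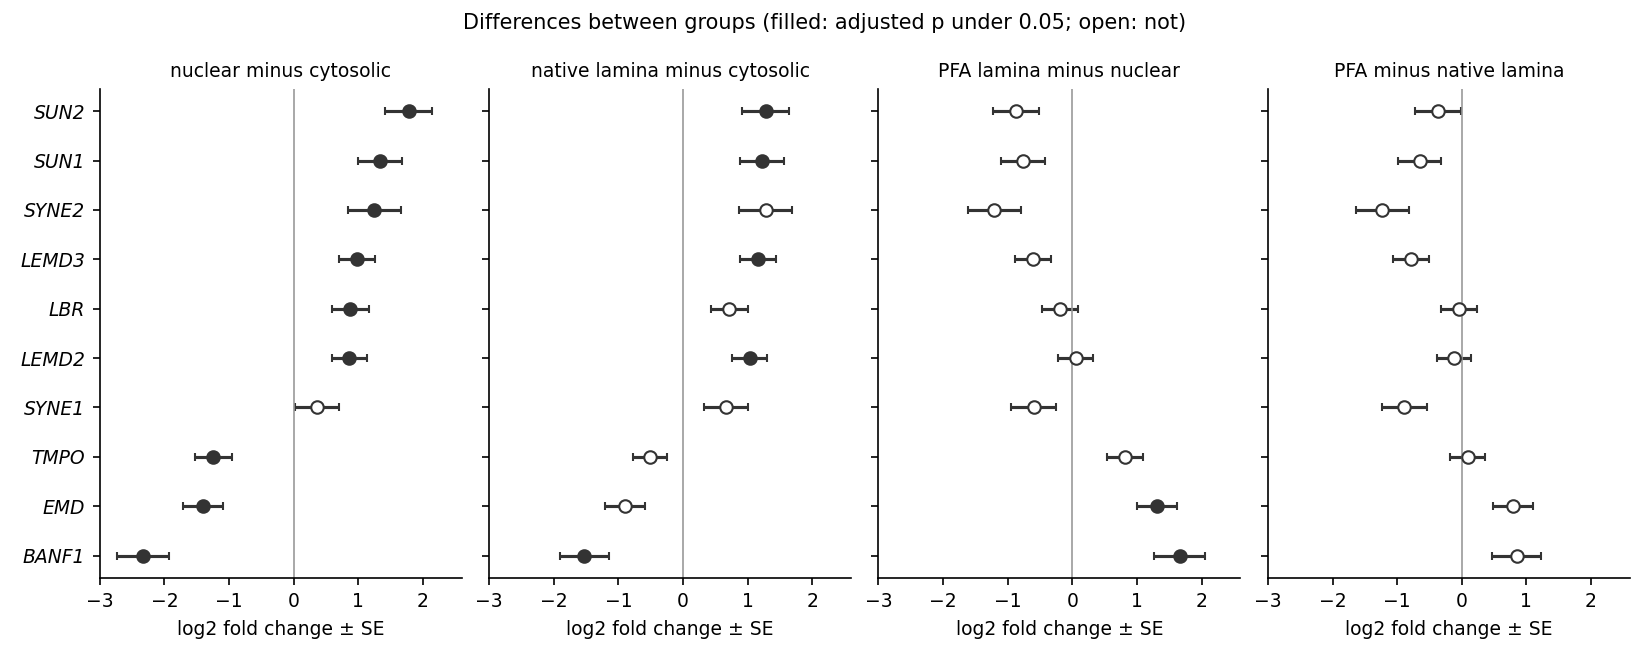
Log2 fold change (x axis) with its SE for the 10 genes in 4 comparisons, ordered by the nuclear minus cytosolic difference; filled circles have an adjusted p under 0.05. BANF1, EMD and TMPO lie at -2.33, -1.40 and -1.24 in the first panel, and in the third panel BANF1 and EMD are the only filled circles, at 1.66 and 1.31.

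Most lamina values lay within the span of the 4 fraction libraries. In native replicate 1, LEMD3 and SYNE1 lay above all 4 fraction libraries and 8 members within their range, although SYNE1 did so by less than the rounding of the values given above. In native replicate 2, LEMD2, LEMD3 and SYNE2 lay above and 7 within. PFA replicate 1 had SYNE1 and SYNE2 below all 4 and 8 within, and PFA replicate 2 had LEMD2 above and 9 within. LEMD3 was thus the only member above all 4 fraction libraries in both native libraries. It read 67.9 and 79.6 normalised CPM there, against a highest fraction value of 66.5. This excess over the nuclear fraction was not called (edgeR quasi-likelihood test, log2 0.18, SE 0.27, adjusted p = 0.706). The share of all genes outside the range of the fraction libraries was not counted, so these member counts have no background.

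The 2 lamina preparations were then compared with each other. No gene of the whole table was called by edgeR, so 0% of all genes is the background here; DESeq2's Wald test called 73 genes higher and 150 lower in PFA, none of them a member. Unadjusted p was under 0.05 for 5 members (SYNE2, LEMD3, EMD, SYNE1 and BANF1), against 11% of all genes. SYNE2 had the smallest adjusted p among the members (0.331), with a mean 2.35-fold lower in the PFA lamina (log2 -1.23, SE 0.41). LEMD3 was at -0.79 (SE 0.28, adjusted p = 0.348), SYNE1 at -0.89 (SE 0.35, 0.395), EMD at 0.80 (SE 0.31, 0.393) and BANF1 at 0.85 (SE 0.38, 0.439). The replicates of 6 members did not overlap between the preparations, 2 higher (EMD and BANF1) and 4 lower in PFA (LEMD3, SUN1, SYNE1 and SYNE2), where 38.6% of all genes did not. SYNE2 passed the threshold without PFA replicate 2 (log2 -2.08, adjusted p = 0.014) and with no filter on low counts (-1.27, adjusted p = 0.0222). In these settings 3.75% and 1.15% of all genes were called either way. Before TMM scaling, MALAT1 and NEAT1 summed to 648 and 4479 CPM in the PFA libraries and to 6976 and 15147 in the native ones. Their part in these differences was not tested.

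Across the 10 genes, the PFA minus native difference tended to be lower in genes with more exonic sequence, with BANF1 and EMD the shortest and SYNE2 and SYNE1 the longest. Spearman's rho between the log2 fold change and exonic length was -0.79 over the 10 genes and -0.33 over all 16504 genes tested. Without the 2 nesprin genes it was -0.62 over 8. Over all 10 genes, across the 4 ways to set 1 PFA against 1 native library, rho ran from -0.78 to -0.65. Between PFA lamina and nuclear fraction rho was -0.61 over the members and -0.06 over all genes, and between nuclear and cytosolic fraction it was 0.37 and 0.07. In the other comparisons rho over the members and over all genes was -0.14 and 0.05 for PFA lamina against cytosol, -0.13 and 0.18 for native lamina against nuclear fraction, and 0.39 and 0.22 for native lamina against cytosol. These are descriptions across genes of the same libraries. TMPO departed most visibly from the trend, with 6.99 kb of exon and a difference of 0.09 (SE 0.27), and SYNE1 lay above the shorter SYNE2, as LBR did above the shorter LEMD2.

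**Figure D3:**
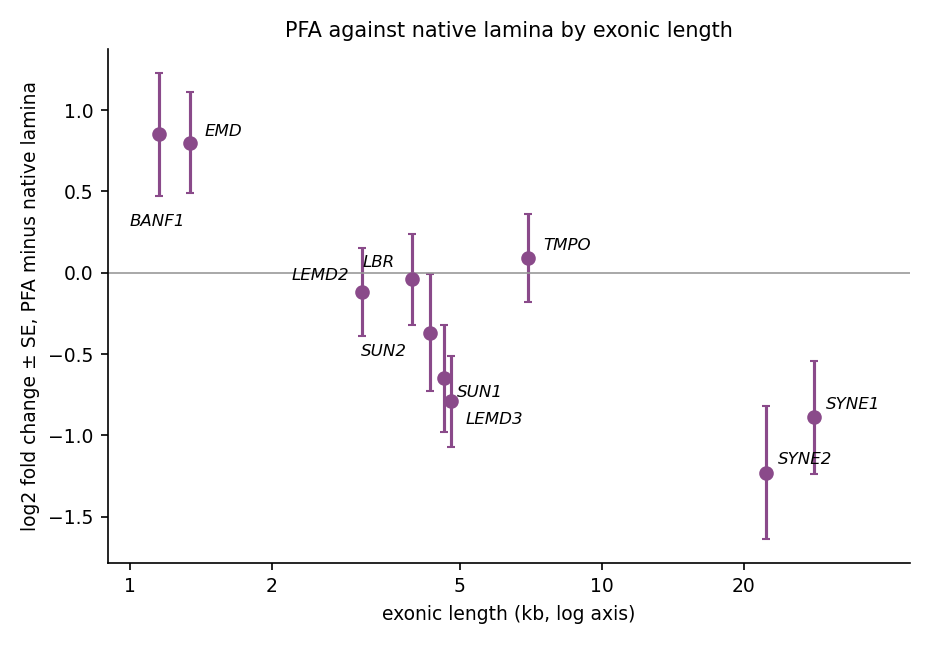
Log2 fold change, PFA minus native lamina, with its SE, against exonic length in kb (log axis) for the 10 genes. BANF1 and EMD, at 1.15 and 1.34 kb, lie at 0.85 and 0.80, and SYNE2 and SYNE1, at 22.27 and 28.17 kb, lie at -1.23 and -0.89; none of these differences passed the adjusted test.

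Ratios of related genes within a library need no scaling between libraries, so 3 pairs were compared per kilobase of exon. LEMD2 to LEMD3 stood at 1.09 and 1.19 in the nuclear pair, 1.34 and 1.15 in the cytosolic pair, 1.10 and 1.16 in the native lamina and 1.97 and 1.67 in the PFA lamina. Both PFA libraries lay above the other 6, which overlapped. The 4 groups gave p = 0.0857 for the log2 ratio in an exact permutation test of the F statistic over the 8 libraries, which counts large F only (adjusted over the 3 pairs, 0.257), so the difference is not beyond the spread by this test. The smallest p this test can give is 0.00952.

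SUN1 exceeded SUN2 per kilobase in every library, by 1.56 and 2.14 times in the nuclear fraction, 1.65 and 3.55 in the cytosolic, 2.79 and 2.13 in the native lamina and 2.36 and 1.75 in the PFA lamina. All 4 groups overlapped (exact permutation test, p = 0.771, adjusted 0.771). SYNE1 was below SYNE2 in every library, at 0.217 and 0.111 times its level in the nuclear fraction, 0.486 and 0.201 in the cytosolic, 0.220 and 0.177 in the native lamina and 0.399 and 0.196 in the PFA lamina. In each group the higher SYNE1 to SYNE2 ratio was that of replicate 1. The test of the groups makes no use of the replicate number and counts that difference as spread (exact permutation test, p = 0.562, adjusted 0.771), so it does not show that the groups are alike.

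**Figure D4:**
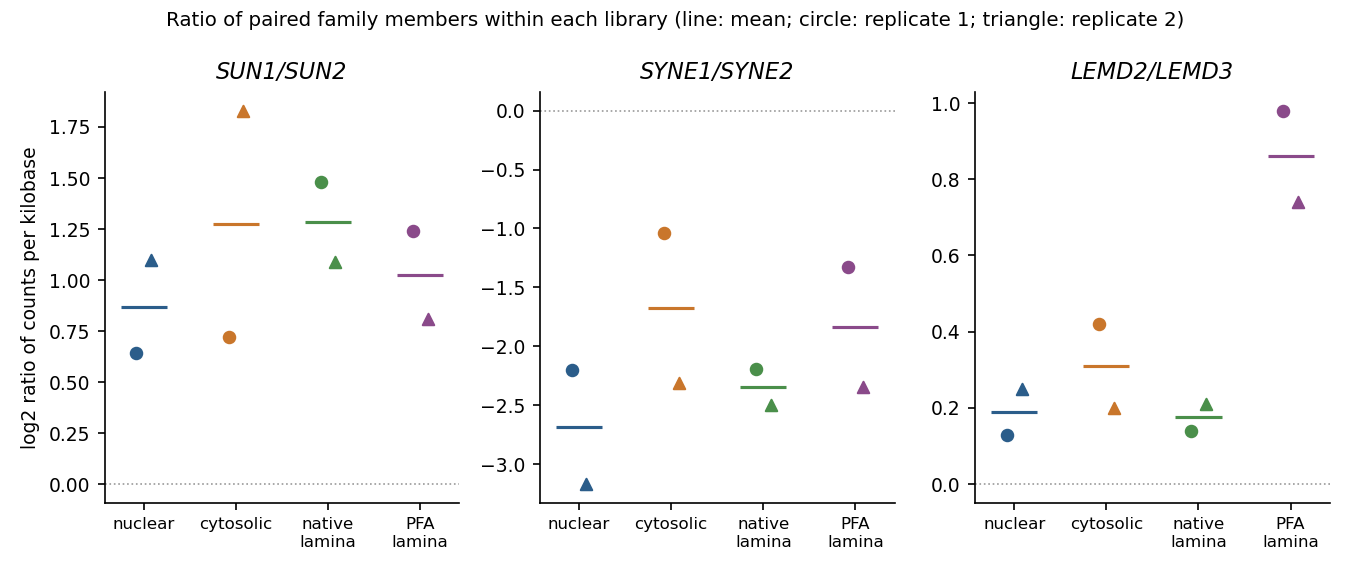
Log2 ratio of counts per kilobase within each library for SUN1 to SUN2, SYNE1 to SYNE2 and LEMD2 to LEMD3, by group; lines are means of 2 libraries, circles replicate 1 and triangles replicate 2, and the dotted line marks equal levels. The PFA values of LEMD2 to LEMD3, 0.98 and 0.74, lie above the other 6, and the groups overlap in the other panels.

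Other genes of the nuclear envelope, taken from a list of 36 symbols, were described beside the members. Of these, 34 were in the tables and 28 were tested. Between the fractions 8 of the 28 were higher in the nuclear and 6 higher in the cytosolic fraction, where 26.1% and 21.2% of all genes were. The median log2 fold change was 0.20, against 0.13 over all genes tested. On the nuclear side were ANKLE1, a LEM-domain nuclease with cytosolic counts of only 6 and 1 (13.9 normalised CPM nuclear, 0.507 cytosolic), the nesprin gene SYNE4 with 7 and 1 (5.26 against 0.574), and SPAG4, a SUN-domain gene (5.13-fold, adjusted p = 0.00696). On the cytosolic side were CHMP4B, an ESCRT-III subunit that seals membranes (4.91-fold, adjusted p = 0.000584), the dynein light chain gene DYNLL1 (3.91-fold, 0.00171) and the envelope phosphatase gene CTDNEP1 (2.88-fold, 0.00248).

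CHMP4B was also the only gene of that list called in native lamina against nuclear fraction (3.96-fold higher, edgeR's test, adjusted p = 0.0073). Of all genes, 7.31% were called either way there. In native lamina against cytosol, NEMP1, an inner membrane protein gene (2.77-fold, adjusted p = 0.00835), the nesprin gene SYNE3 (2.49-fold, 0.0498) and the LEM-domain gene ANKLE2 (1.89-fold, 0.0466) were higher and DYNLL1 was 4.03-fold lower (0.00814). All-gene shares were 6.99% higher and 6.77% lower. The PFA lamina exceeded the nuclear fraction at CHMP4B (2.68-fold, 0.0124) and PRR14, whose product tethers heterochromatin to the lamina (1.96-fold, 0.0457), and the cytosolic fraction at NEMP1 (2.75-fold, 0.0471). Among all genes, 9.63% were called higher against the nuclear and 0.527% against the cytosolic fraction. None of the 28 differed between the lamina preparations in edgeR's test, and 1 had an unadjusted p under 0.05, against 11% of all genes.

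For each member, the gene with the most alike profile was sought among 11101 non-member genes with enough counts and exon. The measure was the Euclidean distance between log2 levels, each gene centred on its mean. It is the square root of the summed squared differences over the 8 libraries. TMPO lay closest to THOC3, at a distance of 0.172, and SYNE2 farthest from its nearest gene, KNTC1, at 0.624. The nearest gene was RAN for BANF1 (0.402), RAC3 for EMD (0.309), UAP1L1 for LEMD2 (0.316), HEG1 for LEMD3 (0.230) and WDR75 for LBR (0.247). It was NOTCH3 for SUN1 (0.237), NDST2 for SUN2 (0.391) and WDR17 for SYNE1 (0.384). Members were not among the candidates, so whether any was nearest to another was not tested.

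The same series holds lamina-associated domains of HCT116, a human colorectal carcinoma line, as 1 consensus list each for G1 (378 domains), S (303) and G2 (388), on hg19. No member overlapped a domain by a single base in any stage, where 7.96% of 27200 genes did in G1, 6.83% in S and 9.54% in G2. None had its start site within 100 kb of a domain either. Over the 27200 genes, 9.32% did in G1, 7.8% in S and 11.3% in G2. The median distance from a member to the nearest domain was 4986.9 kb in G1, 6548.4 kb in S and 4129.6 kb in G2, against 2398.9, 3163.7 and 2123.5 kb over all genes. TMPO was nearest, 609 kb from a domain in G1 and 509 kb in S and G2, followed by SYNE2, 720 kb away in G1 and G2 and 820 kb in S, and LEMD3 was farthest in each stage, at 27063 kb or more. The domains were mapped in another cell line than the RNA, from lists without replicates, so no test was made.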

How the data were processed

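RNA of 8 HEK293FT libraries was sequenced after ribosomal RNA depletion, per the labels' protocols. The deposited values are whole-number counts per gene, which the authors made with featureCounts of Subread 1.5.2 on hg19 RefFlat exons, ignoring strand and counting reads for every gene they overlap, per the file headers. TopHat2 2.1.1 and Bowtie2 2.3.2 are named in the submitters' processing notes. The file of cytosolic replicate 1 names a cytosolic input but, as output, the nuclear replicate 1; its log2 CPM (pseudocount 0.5) correlated at 0.970 with cytosolic replicate 2 and 0.795 with nuclear replicate 1, and it was used as labelled. The domain lists are the authors' deposited consensus intervals in base coordinates without scores.

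Counts were tested with edgeR 4.0.16 (R 4.3.3): filterByExpr by group, TMM scaling and quasi-likelihood tests on a single fit to all 8 libraries with 1 coefficient per group, over 6 comparisons, each adjusted by Benjamini-Hochberg over 16504 genes and called at an adjusted p under 0.05. A fold's SE is the log2 fold change over the square root of its F statistic. Paralog ratios were tested by exact permutation. The scripts were tested on simulated data. Nearest genes had a mean of at least 50 counts and 300 exonic bases. The members and lists were chosen with earlier results of these data known. All members were named, and from each list at most the 3 called genes with the largest difference in each direction. Alternatives were other scaling factors, no filter, a replicate block, 4 libraries only, DESeq2 1.42.0 and each library left out. Low depth limits BANF1 most. The K562 samples and the H3K9me3 libraries were not used here.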

Additional observations from a re-analysis of the deposited data

How the results depend on the processing

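DESeq2 size factors changed no direction and no call among the 60 member differences. With total counts 1 member was called higher in native lamina against nuclear fraction, as with only the 4 libraries compared (TMPO in both). In these settings 10% and 12.3% of all genes were called higher, against 3.87% with TMM and all 8 libraries. In native lamina against cytosol, 2 members were called lower with no filter, with only 4 libraries and by DESeq2's test, in each case BANF1 and EMD. The shares of all genes called lower were 6.53%, 12.1% and 8.54%, against 6.77% with TMM and all 8 libraries. In PFA lamina against nuclear fraction 1 member (SYNE2) was called lower with upper-quartile factors, with no filter and by DESeq2's test, and 0 were called higher with only 4 libraries. All-gene shares called lower were 9.72%, 8.47% and 8.74%, against 7.81% with TMM and all 8 libraries. With only 4 libraries 2.16% of all genes were called higher, against 9.63%. With no filter 1 member was lower in PFA than in native lamina, where 0.63% of all genes were called lower. With a replicate block, 2 members were called lower in native lamina against cytosol and 2 in PFA lamina against nuclear fraction, and no member call was lost. Of all genes, 9.06% and 10.1% were called lower in these comparisons with the block. The block rests on numbers that the labels do not tie to a shared culture or day, and same-numbered deviations correlated from -0.0546 to 0.333 between groups.

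Leaving out 1 library at a time gave 1 to 6 members higher between nuclear and cytosolic fractions, 0 to 5 higher and 0 to 2 lower in native lamina against cytosol, 0 to 3 higher and 0 to 3 lower in PFA lamina against nuclear fraction, 0 to 2 higher and 0 to 1 lower in PFA lamina against cytosol, and 0 to 1 lower in PFA against native lamina. Over the same fits the share of all genes called either way ran from 24.4% to 54.6%, 0% to 25.9%, 0.0727% to 35.4%, 0% to 16.7% and 0% to 3.75%, in that order of comparisons. A group left with 1 library is then assumed to vary like the others. All sign changes were in differences that were not called. With total counts these were LBR (0.12) and SUN1 (0.17) in native lamina against nuclear, EMD in PFA against cytosol (0.10) and TMPO in PFA against native lamina (-0.035). With upper-quartile factors they were SYNE2 in native lamina against nuclear (-0.13), LEMD2 in PFA against nuclear (-0.10) and EMD in PFA against cytosol (0.018). With 1 library left out, these differences crossed 0 over the ranges given: SYNE1 between the fractions (-0.21 to 0.79), SUN1 (-0.30 to 0.04) and SYNE1 (-0.13 to 0.87) in native lamina against nuclear, and LEMD2 in PFA against nuclear (-0.035 to 0.14). In PFA against cytosol they were EMD (-0.29 to 0.14) and SYNE2 (-0.80 to 0.56), and in PFA against native lamina LBR (-0.25 to 0.15), TMPO (-0.033 to 0.19), LEMD2 (-0.26 to 0.041) and SUN2 (-0.97 to 0.08). The cause of these changes was not tested. Against TMM, the median of all genes moved by up to 0.29 with total counts and 0.27 with upper-quartile factors.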
